A study of Mus musculus with 4 samples.

Results

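A set of 107 monocytes and type 2-like dendritic cells was picked out of 26096 cell barcodes that passed a quality filter, of 30824 deposited from tumour-draining inguinal lymph nodes. The cells were chosen by a rule on their own unique molecular identifiers (UMIs, each standing for 1 captured RNA molecule). A barcode needed 300 or more detected genes, with mitochondrial transcripts making up no more than 10% of its UMIs. It could hold no UMI of the B cell gene Cd79a, at most 2 UMIs of the T cell genes Cd3e and Cd3d together, fewer than 3 UMIs of the macrophage genes C1qa, C1qb and C1qc together and fewer than 2 UMIs of Siglech, a plasmacytoid dendritic cell gene. Fewer than 2 of the mature dendritic cell genes Fscn1, Ccl22 and Apol7c could be detected. At least 3 of 13 myeloid genes had to be detected, namely Csf1r, Lyz2, Ccr2, Ms4a4c, F13a1, Vcan, Chil3, Fn1, Clec10a, Cd209a, Sirpa, Itgam and Mgl2. Levels of all these genes are therefore a description of how the cells were chosen and are not tested.

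The study concerned the kinase BTK and the tryptophan-degrading enzyme IDO in the differentiation of inflammatory dendritic cells. All mice were C57BL/6J, without stated age or sex, and carried B16F10 melanoma, a transplantable tumour line, implanted in both thighs. The 2 treated mice had indoximod, which blocks the IDO pathway, in their drinking water (2 mg/ml) from day 9, with ibrutinib, a BTK inhibitor, injected into the peritoneum each day (350 µg). On day 10 they were given 150 mg/kg of cyclophosphamide, an alkylating drug, by the same route. The 2 control mice were untreated. Nodes of both groups were taken 48 hours after the cyclophosphamide and were profiled with 10x Genomics 3′ chemistry, 1 library per mouse. The deposited barcodes carry only a library number from 1 to 4, so no library is tied to a mouse or a group here. Treated mice are therefore not set against control mice here, and the libraries are given one by one, with no average over them as replicates.

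Monocytes are made in the bone marrow and circulate in blood. The classical kind carries Ly6c2, part of the Ly6C surface antigen, and the chemokine receptor Ccr2, which lets it leave the marrow and enter inflamed tissue. There it can turn into macrophages or into inflammatory dendritic cells. The nonclassical kind patrols vessels, carries little Ly6C and depends on the transcription factor Nr4a1. Type 2 dendritic cells are a separate lineage that carries Sirpa, Cd209a and Clec10a, depends on the cytokine receptor Flt3 and presents antigen to CD4 T cells on MHC class II molecules.

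Libraries 1, 2, 3 and 4 held between 6978 and 9831 barcodes and between 39589629 and 53643414 UMIs. The members numbered 24, 31, 24 and 28, or 0.424%, 0.538%, 0.379% and 0.336% of the kept barcodes (exact 95% interval over all libraries 0.336% to 0.495%). Intervals here and below cover counting error only. Members had a median of 8320 UMIs, between 7746.5 and 9523 by library, and a median of 2633 genes. A doublet caller marked 1 of the 107, in library 4, and no barcode sequence was shared between members of different libraries. One cell of library 2 stood apart with 144285 UMIs, against 26754 in the next deepest member. It held 37.7% of the member UMIs of library 2 and all 6 melanoma markers, among them 2139 UMIs of the pigment enzyme Dct. It also held 95.5% of that library's member UMIs of the division gene Top2a and 73.0% of those of the glycolytic gene Gapdh.

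The members were mixed. At least 3 markers of a lymphoid, neutrophil, mast cell or basophil, erythroid, stromal or melanoma type were present in 27 of them, in 4, 10, 7 and 6 cells of libraries 1 to 4. These were 8 cells with neutrophil markers, 7 with natural killer (NK) cell markers, 5 with B cell, 3 with T cell, 3 with erythroid and 2 with melanoma markers, with some cells under more than 1 type. No member held 3 markers of basophils and mast cells, plasma cells or stroma. Cells with markers of other dendritic cells or of macrophages are not counted among the 27 and were kept throughout. At least 3 type 1 dendritic cell markers were present in 25 members, at least 3 plasmacytoid dendritic cell markers in 11, and at least 3 of mature dendritic cells or of sinus macrophages in 3 each. The neutrophil marker list summed to 40.5, 1643, 24181 and 15111 UMIs per 1000000 UMIs of the set (CPM) over the members of libraries 1 to 4, with Camp at 0. The melanoma list summed to 13.5, 10705, 0 and 0 CPM. Without these 27 cells, called cells of other types below, 80 members were left, and results are given again without them where they change.

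Of the 5 genes that stand for the label, Lyz2, which encodes lysozyme, was detected in 97 of the 107 cells and Csf1r, the receptor for the growth factor of monocytes and macrophages, in 77. Ccr2 was detected in 69 cells, Ly6c2, which was no part of the rule, in 41, and Cd209a, a lectin of type 2 dendritic cells, in 15. The other rule genes ranged from Sirpa in 85 cells and Ms4a4c in 69 to Clec10a in 13, Mgl2 in 9 and Vcan in 7. At least 3 of the 9 monocyte markers were present in 74 cells, 3 of the 6 nonclassical monocyte markers in 28 and 3 of the 8 type 2 dendritic cell markers in 20. The rule itself used 8 of the 9 monocyte markers and 3 of the 8 type 2 dendritic cell markers, so these counts were largely set by how the cells were chosen. It used 0 of the 6 nonclassical monocyte markers. At the edge of the rule, the 35 cells with exactly 3 rule genes had a median of 3861 UMIs, 15 of them were cells of other types and 2 were high in Ly6c2. The 65 cells just outside, with exactly 2 rule genes, had a median of 3731 UMIs, 37 of them carried at least 3 markers of those other types and 4 were high in Ly6c2.

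Ly6c2 split the members and differed between libraries. Its gene lies on the minus strand of chromosome 15 (mm10, chr15:75108158-75111970). Counts of Ly6c2, and of Lyz2, Ifi204, Ifi211, Cd209a, Cd209d and the H2-Q genes, are uncertain where reads could also fit a close copy of the gene. Members were called Ly6c2-high with at least 4 UMIs of it and Ly6c2-low with 0 or 1. The high cells numbered 5 of 24 in library 1 (20.8%, exact 95% interval 7.13% to 42.2%), 2 of 31 in library 2 (6.45%, 0.791% to 21.4%), 9 of 24 in library 3 (37.5%, 18.8% to 59.4%) and 17 of 28 in library 4 (60.7%, 40.6% to 78.5%). In these 33 cells the median was 11, 9, 36 and 33 Ly6c2 UMIs in libraries 1 to 4, so the high cells of libraries 3 and 4 also carried more of it per cell. The low cells numbered 18, 28, 14 and 9, and 5 cells lay between.

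With every cell thinned to 2000 UMIs, which left out 15 shallower cells, Ly6c2 was found in 4 of 22 cells of library 1, in 0 of 24 of library 2 (exact 95% interval up to 14.2%), in 9 of 20 of library 3 and in 15 of 26 of library 4. Summed over the members, Ly6c2 stood at 310.1, 54.8, 1844 and 2806 CPM in libraries 1 to 4, and at 378, 54.5, 2523 and 3014 CPM without the cells that carried markers of another type. Any Ly6c2 UMI was found in 38.3% of members, against 6.90% of B cells, at a median depth of 8320 UMIs in members and 3856 UMIs in B cells. Which mice or treatments the libraries stand for is not known here, so the treatment, the mouse and the cell preparation cannot be told apart in these differences.

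Cd209a marked a smaller and separate set. Its gene lies on the minus strand of chromosome 8 (mm10, chr8:3743397-3748984). At least 2 UMIs of it were present in 5, 5, 1 and 2 members of libraries 1 to 4, 13 cells in all, and 2 cells of library 2 held 1 UMI. No member held both a Ly6c2 UMI and a Cd209a UMI. Cd209a was not found in any mature dendritic cell, sinus macrophage or type 1 dendritic cell, classes set by rules given below, and was present in 50.8% of plasmacytoid dendritic cells.

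**Figure D1:**
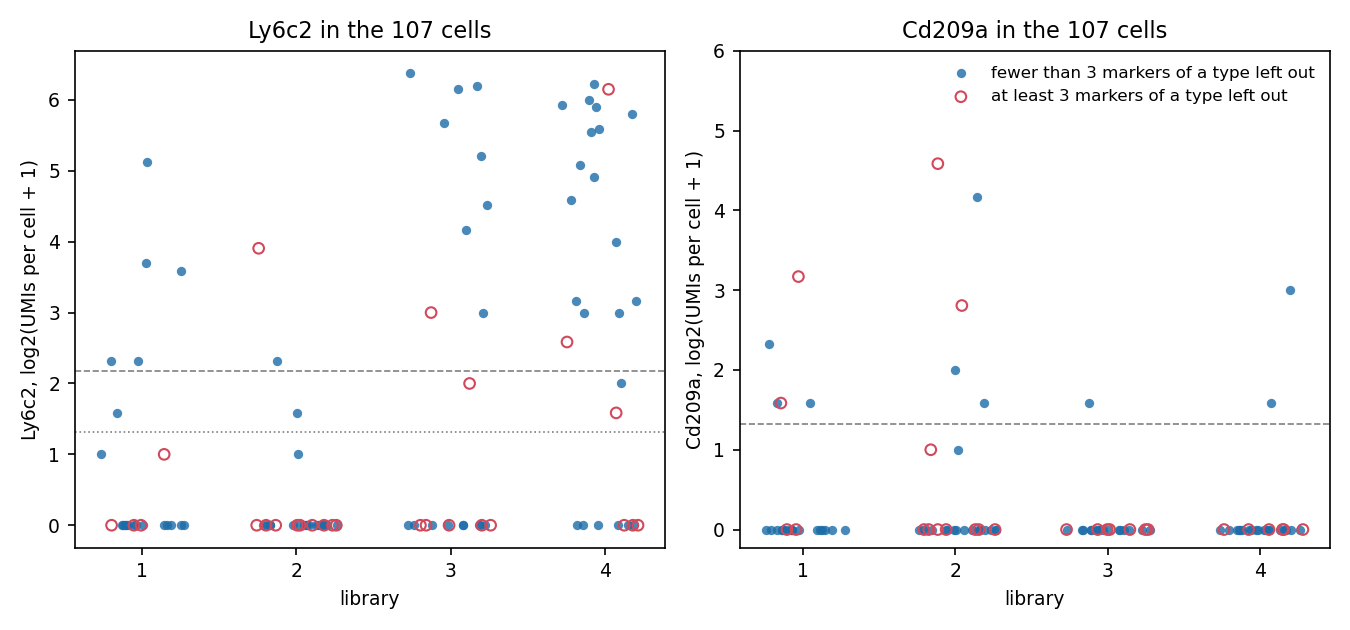
UMIs per cell on a log2(UMIs + 1) axis for Ly6c2 (left) and Cd209a (right) in each of the 107 members, by library. Open points are the 27 cells with at least 3 markers of a lymphoid, neutrophil, erythroid or melanoma type, filled points are all other members, the dashed lines mark the limits for Ly6c2-high (at least 4 UMIs) and Cd209a-carrying cells (at least 2 UMIs), and the dotted line marks the limit for Ly6c2-low cells. The 33 Ly6c2-high cells lie mostly in libraries 3 and 4 (9 and 17 cells) and the 13 Cd209a-carrying cells mostly in libraries 1 and 2 (5 and 5 cells).

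Clustering the members without the interferon and Ly6 gene lists gave 4 clusters at a Leiden resolution of 0.5 and 6 at a resolution of 1. The finer clusters are described by their leading genes only, since leading genes outside those lists could also have formed them. Cxcl10, Ifit2, Ly6c2 and Ly6i were on the lists left out. Cluster 3, with 22 cells (3, 4, 5 and 10 in libraries 1 to 4), was led by Cxcl10, Ifit2, Chil3, F13a1, Fn1 and Ly6c2 and is called monocyte-like. It held 18 of the 33 Ly6c2-high cells. Of all member UMIs of Cxcl10, 53.2% came from 1 cell of this cluster, in library 2. Cluster 2, with 27 cells (6, 8, 6 and 7), was led by Adgre4, Ly6i, Eno3, Ace and Treml4 and is called nonclassical monocyte-like. It held 13 Ly6c2-high cells, from libraries 1, 3 and 4, so a high Ly6c2 count did not separate both monocyte-like clusters.

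Cluster 1, with 29 cells (9, 10, 6 and 4), was led by Lyz1, Cd209a, Cd209d and Itgax and by the MHC class II gene H2-DMb2. It held 9 of the 13 Cd209a-carrying cells and no Ly6c2-high cell, and it was left unnamed. Cluster 4, with 15 cells (5, 7, 1 and 2), was led by the division genes Top2a, Pclaf, Rrm1 and Stmn1. Leading genes rest on UMIs summed over cells, and the cell of 144285 UMIs was in this cluster. That cell held 68.3% of all member UMIs of Top2a, and Top2a was detected in 33.3% of the cluster's cells. Cluster 4 held the other 4 Cd209a-carrying cells and both cells with melanoma markers, and it was left unnamed too. The 7 cells of cluster 5 were NK-like, led by Gzma, Nkg7 and Ncr1, and the 7 of cluster 6 neutrophil-like, led by S100a9, S100a8 and Retnlg. The level plot of these genes shows Ly6c2 and MHC class II genes such as H2-Eb1 in mostly different cells.

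**Figure D2:**
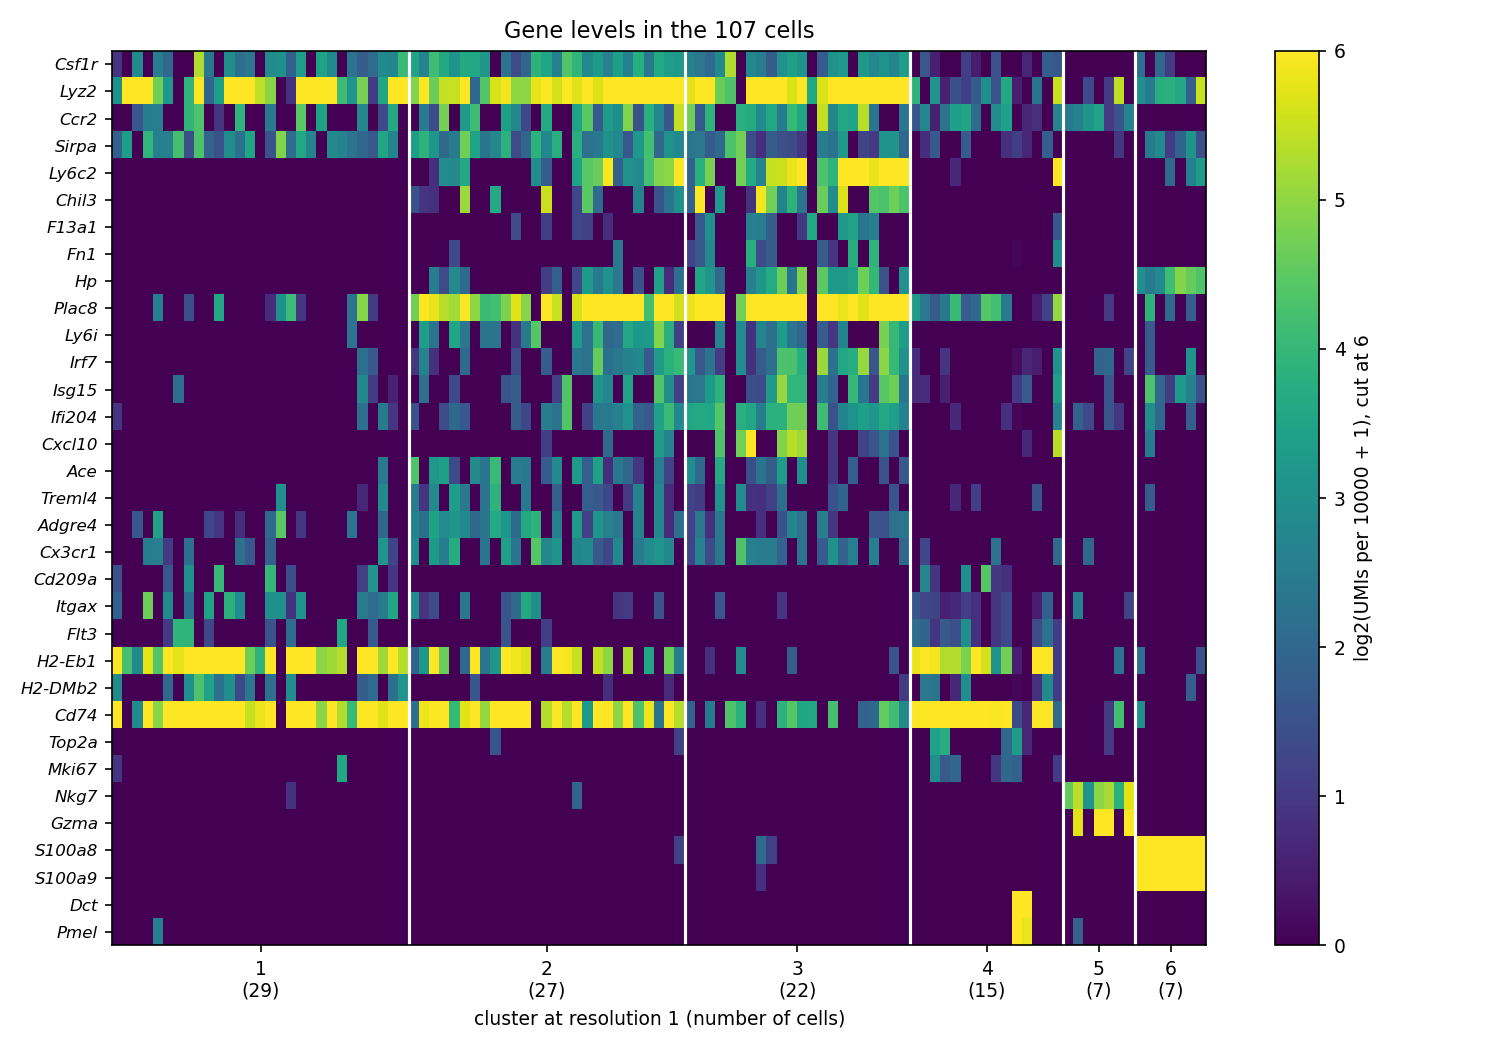
Levels of 33 genes (rows) in the 107 members (columns, ordered by cluster at resolution 1 and divided by white lines), as log2(UMIs per 10000 + 1) cut at 6. Ly6c2, Chil3 and interferon genes are highest in cluster 3, Cd209a in cluster 1, Nkg7 in cluster 5 and S100a8 in cluster 6 (7 cells each).

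Ly6c2-high cells carried more of the classical monocyte genes and of the type I interferon genes, and less of the MHC class II genes, than Ly6c2-low cells of the same library. The 2 sets differed in make-up. Over all libraries, the monocyte-like clusters 2 and 3 held 13 and 18 of the 33 high cells. All 29 cells of cluster 1 and all 7 NK-like cells were low, and 1 of the 15 cells of cluster 4 was high. The comparison thus spans different clusters and is not one between states of monocytes alone. The comparison used libraries 1, 3 and 4, since library 2 held only 2 high cells, and calls follow a rule on size, with no test behind them. A gene was called when its level differed at least 1.5-fold the same way in all 3 libraries, with at least 10 UMIs of it in each. Of 2254 genes that could be called, 314 were higher (13.9%) and 87 lower (3.86%) in the high cells, and the median log2 ratio of all was 0.23. With a trimmed-mean scaling (TMM), which moved that median to 0.13, 176 were higher and 136 lower, and with cells thinned to 2000 UMIs 55 were higher and 26 lower of 396. Without the cells that carried another type's markers, 271 of 1761 genes were higher (15.4%) and 69 lower (3.92%), and 209 of the higher and 53 of the lower genes were called both times. Leaving out library 1, 3 or 4 leaves 2 libraries to meet the rule and gave 737, 676 and 692 calls in both directions together, against 401. High cells had a median of 9308 UMIs and low cells of 7007, with 10424 in high and 3784.5 in low cells of library 3.

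The classical monocyte list held 20 genes, among them rule genes and Ly6c2 itself, and 15 of the 16 that could be called were higher in the high cells, with 0 lower and a median log2 ratio of 2.99. In a recount chosen after the values were seen, without the rule genes and Ly6c2, 9 of 10 were higher and 0 lower, with a median log2 ratio of 2.65. The rule gene Chil3, a chitinase-like protein of marrow-derived monocytes, stood at 2037, 75.3, 1538 and 864 CPM in the high cells of libraries 1 to 4. In the low cells it stood at 23.5, 38.8, 0 and 0 CPM. In libraries 1, 3 and 4 the values of both sets did not overlap, and the log2 ratio over these libraries was 6.43 (counting interval 5.38 to 8.64). The high value of library 2 rested on 1 UMI in 2 cells. Hp, which encodes the haemoglobin scavenger haptoglobin, stood at 627, 452, 1108 and 693 CPM in high cells, against 35.3, 13.8, 62.6 and 145 CPM in low cells, a log2 ratio of 3.59 (3.01 to 4.35). Plac8, a gene of immature myeloid cells, had 5931, 7154, 10075 and 8322 CPM in high cells, against 1328, 761, 959 and 29.0 CPM in low cells. Its log2 ratio was 3.15. The antiviral membrane genes Ifitm3 and Ifitm6 and the rule gene Ms4a4c had log2 ratios of 3.03, 3.45 and 2.95. Clotting factor gene F13a1, also a rule gene, had 40 UMIs in high and 1 in low cells, a log2 ratio between 3.06 and 10.96. It was not called without the cells of other types.

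The receptors that bring monocytes to tissue and keep them alive were higher in the same cells by less. Ccr2, a rule gene, stood at 985, 1205, 968 and 1162 CPM in the high cells of libraries 1 to 4, against 341, 332, 313 and 464 CPM in the low cells. Its log2 ratio was 1.57 (1.26 to 1.89). Each library's high cells were thus above every library's low cells, in a gene that helped to choose the members. Csf1r, also a rule gene, had a log2 ratio of 1.39 and was not called without the cells of other types. The fractalkine receptor Cx3cr1, a gene of nonclassical monocytes, was higher too, with a log2 ratio of 1.51, as was the adhesion receptor Adgre4 with 1.61. Of the nonclassical list 3 of the 8 genes that could be called were higher and 0 lower, the third being the integrin Itgal at 1.11. Ace and Treml4, which also mark nonclassical monocytes, did not meet the rule, with log2 ratios of 1.09 and 0.84. Among 6 genes of the Fc and pattern receptor list 4 were called higher, among them Tlr7, a sensor of single-stranded RNA, with 37 UMIs in high and 2 in low cells. Fcgr1, a high-affinity antibody receptor used to mark monocyte-derived cells, was found in 25 of 33 high cells and in 3 of 69 low cells. It had 101 UMIs in the high cells of libraries 1, 3 and 4 and 0 in the low cells there, at least 41.5-fold higher, and it had too few UMIs in library 1 to be called.

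**Figure D3:**
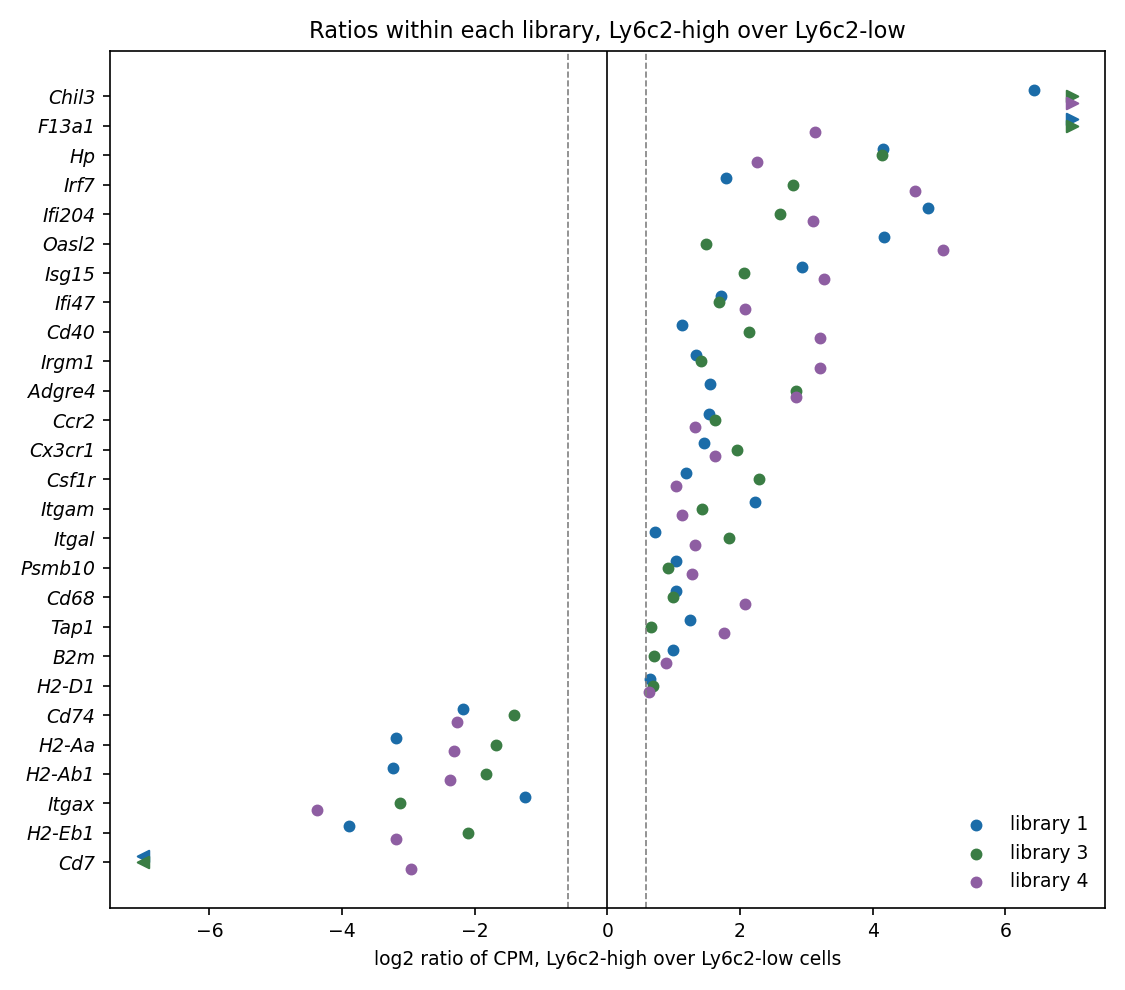
log2 ratio of CPM in Ly6c2-high over Ly6c2-low members within library 1, 3 or 4 (points) for called genes named by the fixed rule, without Ly6c2 itself. Arrowheads at 7 or -7 mark a ratio with 0 UMIs on one side, and dashed lines mark 1.5-fold. Chil3, Hp, Irf7 and Isg15 lie to the right of the upper line in every library, and H2-Eb1 and Cd74 to the left of the lower one.

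Interferon-stimulated genes are switched on by type I interferon, a cytokine best known from viral infection. Of 33 genes on the type I list 18 could be called, and 13 were higher in the Ly6c2-high cells with 0 lower (median log2 ratio 2.18, against 0.23 for all genes). With TMM scaling 10 were higher and 0 lower, and without the cells of other types 11 of 14 were higher and 0 lower. Irf7, a transcription factor that amplifies the interferon response, stood at 224, 151, 1022 and 1088 CPM in the high cells of libraries 1 to 4, against 64.6, 16.6, 146 and 43.5 CPM in the low cells. The high cells of libraries 1, 3 and 4 were above the low cells of all libraries, and the log2 ratio was 3.42 (2.90 to 4.08). The high value of library 2 rested on 2 UMIs in 2 cells. Isg15, a ubiquitin-like protein, had 358, 151, 1000.0 and 700.3 CPM in high cells, against 47.0, 99.7, 239.8 and 72.5 CPM in low cells. It was higher within each library, and its log2 ratio was 2.76 (2.28 to 3.35). Overlap between libraries came only from the high value of library 2, which rested on 2 UMIs. Ifi204, which encodes a DNA sensor, and Oasl2, an antiviral protein, had log2 ratios of 3.35 and 2.78.

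The promoters of 4 of these called genes are shown because the type I list is the largest called group besides the monocyte genes, with the 250 bases before the start given 5′ to 3′ from RefSeq (GRCm38.p6). Capitals mark matches to GAAANNGAAA or its reverse complement TTTCNNTTTC, the spacing of the interferon-stimulated response element, with overlapping matches counted. They lie on the minus strand at chr4:156200819-156201068 (Isg15), chr1:173913047-173913296 (Ifi211), chr8:71537473-71537722 (Bst2) and chr7:141266425-141266674 (Irf7).
Isg15: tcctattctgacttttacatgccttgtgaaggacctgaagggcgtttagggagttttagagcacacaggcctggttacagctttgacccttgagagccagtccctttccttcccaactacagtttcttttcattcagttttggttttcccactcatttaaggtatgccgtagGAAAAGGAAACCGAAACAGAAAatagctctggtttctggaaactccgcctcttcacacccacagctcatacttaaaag
Ifi211: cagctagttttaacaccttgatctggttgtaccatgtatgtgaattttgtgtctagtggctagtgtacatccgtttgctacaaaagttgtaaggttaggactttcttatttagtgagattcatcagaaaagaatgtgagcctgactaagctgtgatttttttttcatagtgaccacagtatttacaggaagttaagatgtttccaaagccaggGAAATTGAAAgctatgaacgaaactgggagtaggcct
Bst2: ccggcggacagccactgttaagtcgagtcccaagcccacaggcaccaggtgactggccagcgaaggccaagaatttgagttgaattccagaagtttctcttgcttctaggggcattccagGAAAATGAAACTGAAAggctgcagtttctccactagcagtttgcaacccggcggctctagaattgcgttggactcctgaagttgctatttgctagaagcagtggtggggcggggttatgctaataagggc
Irf7: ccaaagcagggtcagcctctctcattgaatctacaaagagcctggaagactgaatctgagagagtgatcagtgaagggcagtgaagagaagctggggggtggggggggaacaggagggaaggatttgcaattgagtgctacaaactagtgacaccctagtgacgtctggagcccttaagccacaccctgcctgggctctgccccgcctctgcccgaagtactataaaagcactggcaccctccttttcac
Isg15 held 3 matches, 78, 72 and 66 bases before the start, Bst2 held 2, at 130 and 124 bases, and Ifi211 held 1, at 37 bases. Irf7 held 0. Of the 13 called type I genes 8 were found in the promoter table and 5 held a match (62.5%), against 978 of all 32851 promoters of the same length (2.98%). The list was made of interferon-stimulated genes, so a share above that of all promoters was set by the choice of list. Among genes of the list that were not called, Phf11b and 1 promoter of Trim30a held 1 match, and Irf9 and Ddx58 held 0. A match is a run of letters and not a binding site, and both promoters listed for Ly6c2 held 0.

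Per cell, the type I list summed to a median of 16746 CPM in Ly6c2-high cells (lowest 2463, highest 40436), against 1692 CPM in Ly6c2-low cells (0 to 27599). The ranges overlapped. By library the medians were 8220.4, 14963, 17788 and 19075 CPM in high cells, against 1245, 1325, 3724 and 1773 CPM in low cells, with 2 high cells in library 2. Within each library the median of the high cells was above that of the low cells. Genes of the interferon-gamma list, which type I interferon also induces in part, were called higher for 3 of 3 that could be called, Irgm1, Ifi47 and Serpina3g. Without the cells of other types only Serpina3g could be called, and it was higher. The chemokine gene Cxcl10 had 182 UMIs in high and 2 in low cells of libraries 1, 3 and 4. Of all its member UMIs, 53.2% came from 1 cell of library 2, which this comparison left out.

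**Figure D4:**
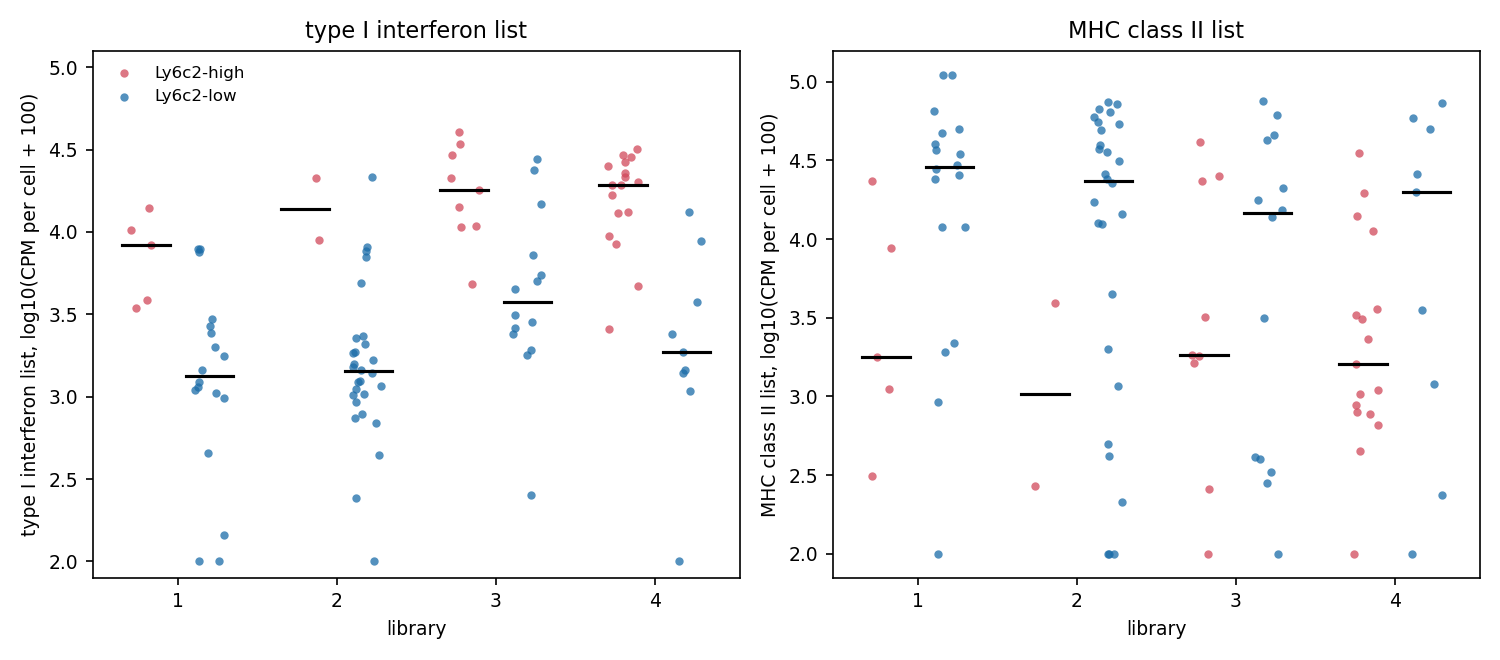
Summed level per cell of the type I interferon list (left) and the MHC class II list (right), as log10(CPM + 100), in Ly6c2-high cells (left of each library number) and Ly6c2-low cells (right of it). Each point is a cell and bars are medians. The interferon medians are higher in high cells of each library (16746 CPM over all high cells and 1692 CPM over all low cells), and the MHC class II medians are lower (1713 CPM over all high cells and 22509.5 CPM over all low cells).

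MHC class II genes, which present antigen to CD4 T cells, ran the other way. Of 11 genes on the list 7 could be called, and 5 were lower in the high cells with 0 higher, with a median log2 ratio of -1.92. The same count held with TMM scaling and without the cells of other types. H2-Eb1 stood at 425, 75.3, 1237 and 633 CPM in the high cells of libraries 1 to 4, against 6293, 3713, 5277 and 5744 CPM in the low cells. No high value reached a low one, with 1 UMI in the 2 high cells of library 2, and the log2 ratio was -2.86 (-3.08 to -2.67). H2-Ab1 and H2-Aa, the beta and alpha chains of another class II molecule, had log2 ratios of -2.45 and -2.23, the invariant chain Cd74 -1.92 and the peptide exchanger H2-DMa -1.25. Ciita, the transcription factor that drives them, did not meet the rule at -0.93. Per cell the list summed to a median of 1713 CPM in high cells (0 to 41197), against 22509.5 CPM in low cells (0 to 110716), so both sets had cells with no class II UMI. Itgax, which encodes the integrin CD11c of dendritic cells, had 8 UMIs in high and 77 in low cells, a log2 ratio of -2.81 (-4.23 to -1.92).

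MHC class I genes, present on nearly all cells, differed less. Of 13 that could be called 4 were higher and 0 lower: H2-D1 (log2 ratio 0.71), its light chain B2m (0.89), the peptide pump Tap1 (0.97) and the proteasome subunit Psmb10 (1.10). Tap1 was not called without the cells of other types. With TMM scaling 0 of the 13 were higher and 0 lower. Of 20 genes on the lysosome list that could be called 12 were higher and 0 lower, a count that was 6 with TMM scaling. Id2, a transcription factor of dendritic and NK cells, was lower at -2.88 and was not called without the cells of other types. Nkg7 and Ccl5 were lower too and were likewise lost, and all 7 NK-like cells were among the low cells. Cd7 had 2 UMIs in high and 33 in low cells and was lost as well.

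Of 16 genes on the inflammatory dendritic cell list 6 could be called, and 5 were higher in the high cells with 0 lower, namely Ly6c2, the rule genes Itgam, Csf1r and Ccr2, and the costimulatory gene Cd40. Cd40 was thus the 1 called gene of the 2 that were left without the rule genes and Ly6c2. Without the cells of other types 3 of 5 genes of the list were higher, and Cd40 was not called. Genes of the drug targets had few UMIs. Btk, the target of ibrutinib, had 39 UMIs in 28 cells, at 49.4, 26.1, 60.5 and 27.4 CPM in libraries 1 to 4, and it had 13 UMIs in high and 13 in low cells of libraries 1, 3 and 4 (log2 ratio 0.30, counting interval -0.93 to 1.53), too few to be called. Of 8 genes of the BTK pathway list that could be called 3 were higher in the high cells and 0 lower, among them the phospholipase Plcg2 at 1.89 and the kinase Fgr at 1.19. Fgr was not called without the cells of other types. Ido1, which encodes IDO, had 0 UMIs in the members, which allows up to 2.93 CPM over all of them. Il12b had 0 UMIs as well, Nos2 1 UMI in 1 cell and Tnf 5 UMIs in 3 cells, all 3 of them Ly6c2-high. Itgae, which encodes the integrin CD103, had 2 UMIs in 2 Ly6c2-low cells of library 3. Ly6c1, the close relative of Ly6c2, had 1 UMI.

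Most of the genes that specify dendritic cells had too few UMIs in some library to be called in either direction, among them Batf3, Flt3, Zbtb46 and Irf4. Batf3, needed by type 1 dendritic cells, had 4 UMIs in high and 47 in low cells, a log2 ratio of -2.96 (-5.19 to -1.80). The receptor Flt3 had 1 UMI in high and 43 in low cells, with a counting interval of -10.46 to -2.57. Zbtb46, a factor of conventional dendritic cells, had 2 UMIs in high and 8 in low cells, an interval of -4.97 to 0.63 that includes no difference. Irf8, shared by monocytes and type 1 dendritic cells, stood at 313, 828, 194 and 283 CPM in high cells, against 729, 282, 761 and 131 CPM in low cells, without one direction over libraries, and could be called but did not meet the rule. Irf4 had 18 UMIs in 11 members and Trp53, the p53 gene, 68 UMIs in 38, and Trp53 too had too few in some library to be called.

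Cd209a-carrying cells had more UMIs of MHC class II genes, per UMI of the set, and fewer of most monocyte and interferon genes than members without it. Only libraries 1 and 2 held 5 carrying cells each. Carrying cells were deeper, with a median of 11329 and 10953 UMIs in these libraries, against 7612 and 6040 in lacking cells. The lacking cells of library 2 include the cell of 144285 UMIs. Of 3154 genes 143 were higher (4.53%) and 658 lower (20.9%) in the carrying cells. Without that cell 117 of 2729 were higher (4.29%) and 600 lower (22%), of which 97 higher and 475 lower genes were called both times. Values below are without it, where 42 lacking cells remained. No value could be had without all cells of other types, which included 4 of the 13 carrying and 22 of the 92 lacking cells.

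H2-Eb1 stood at 11069.6 and 8990.1 CPM in the carrying cells of libraries 1 and 2, against 2439 and 5194 CPM in the lacking cells. The invariant chain Cd74 stood at 22659.5 and 20867 CPM in carrying cells, against 6199 and 9749 CPM in lacking cells, a log2 ratio of 1.45. Of 9 class II genes that could be called 7 were higher and 0 lower, and the largest log2 ratios were those of H2-DMb2 at 3.21 and H2-Oa at 3.19, which act in peptide loading. Flt3 had 28 UMIs in carrying and 22 in lacking cells, a log2 ratio of 1.87. Of 6 type 2 dendritic cell genes that could be called 2 were higher, Flt3 and Cd209a itself, which set the split, and 2 were lower. The lower ones were both rule genes, Sirpa with 26 UMIs in carrying and 157 in lacking cells (log2 ratio -1.01) and Itgam with 0 and 65, at least 7.46-fold lower. Cd209d, of the same lectin family, had 54 UMIs in carrying and 2 in lacking cells. Gpr183, a receptor that positions dendritic cells in lymphoid organs, and Tcf4, a transcription factor, had log2 ratios of 2.09 and 2.85, and these and Cd209d were picked for mention once their values were known. Tcf4 and Cd209a are also genes of plasmacytoid dendritic cells, and 1 of the 13 carrying cells held at least 3 markers of that type.

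Of 15 classical monocyte genes that could be called 11 were lower in the carrying cells and 1 was higher. The higher one was the calcium-binding protein gene S100a4, with 365 UMIs in carrying and 571 in lacking cells (log2 ratio 0.89). In the same recount without the rule genes and Ly6c2, 6 of 9 were lower and 1 higher. Chil3 had 0 UMIs in carrying and 150 in lacking cells, at least 17.2-fold lower, and Ace had 0 and 85, at least 9.76-fold lower. The integrin Itgal had 0 UMIs in carrying and 98 in lacking cells, at least 11.2-fold lower, and the transcription factor Cebpb had 0 and 163, at least 18.7-fold lower. Of 16 type I interferon genes that could be called 13 were lower and 0 higher (median log2 ratio -1.74, against -0.23 for all genes). Ifi204 had 1 UMI in carrying and 84 in lacking cells. Irf8 stood at 15.8 and 103 CPM in carrying cells of libraries 1 and 2, against 861 and 458 CPM in lacking cells, a log2 ratio of -3.40. Of the nonclassical monocyte list 9 of the 9 genes that could be called were lower. Irf4 had 6 UMIs in carrying and 9 in lacking cells, too few to be called.

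Levels of the members' genes differed widely between libraries. Of 4367 genes with at least 50 CPM in a library, 2213 (50.7%) differed at least 2-fold between the highest and the lowest library after 10 CPM was added, and 1493 did without the cell of 144285 UMIs. Of the type I interferon genes 33 of 33 passed this limit, with the highest value in library 3 for 23 of them, in library 4 for 9 and in library 2 for 1. The list summed to 3964, 2695, 12622 and 12368 CPM over the members of libraries 1 to 4, and to 4067, 3589, 14469 and 13266 CPM without the cells of other types. Within Ly6c2-high cells alone it summed to 8595, 10317, 21237 and 17738 CPM, against 2297, 2259, 5037 and 2393 CPM within low cells, so the difference between libraries was present within the high cells as well as in their number. Irf7 had the widest range among its interferon list, at 121, 26.1, 549 and 718 CPM.

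Lymphocytes of the same libraries also differed, and the list summed to 1775, 1764, 4415 and 4407 CPM in B cells and to 1979, 2023, 3128 and 3126 CPM in T cells. Other cells of the node differed less or in another order, as the plot of the list by class shows. MHC class II genes were highest in library 1 for 9 of 9 genes, and 4 of the 9 differed at least 2-fold, against 50.7% of all genes. The list summed to 29949, 19908, 19329 and 15659.5 CPM over the members. Without the cells of other types the order changed, with 26607, 38219.6, 27116 and 18951 CPM. Of 17 classical monocyte genes 17 differed at least 2-fold, with 14 highest in library 4. Without library 2 the count past 2-fold was 989. The widest ranges of all belonged to the neutrophil genes S100a9 and S100a8, with ratios of 1126 and 997, and the neutrophil-marker cells numbered 0, 1, 4 and 3 in libraries 1 to 4. The 13 cell cycle genes were highest in library 1 for 4 and in library 2 for 9, where the deepest cell held most of the UMIs of several.

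**Figure D5:**
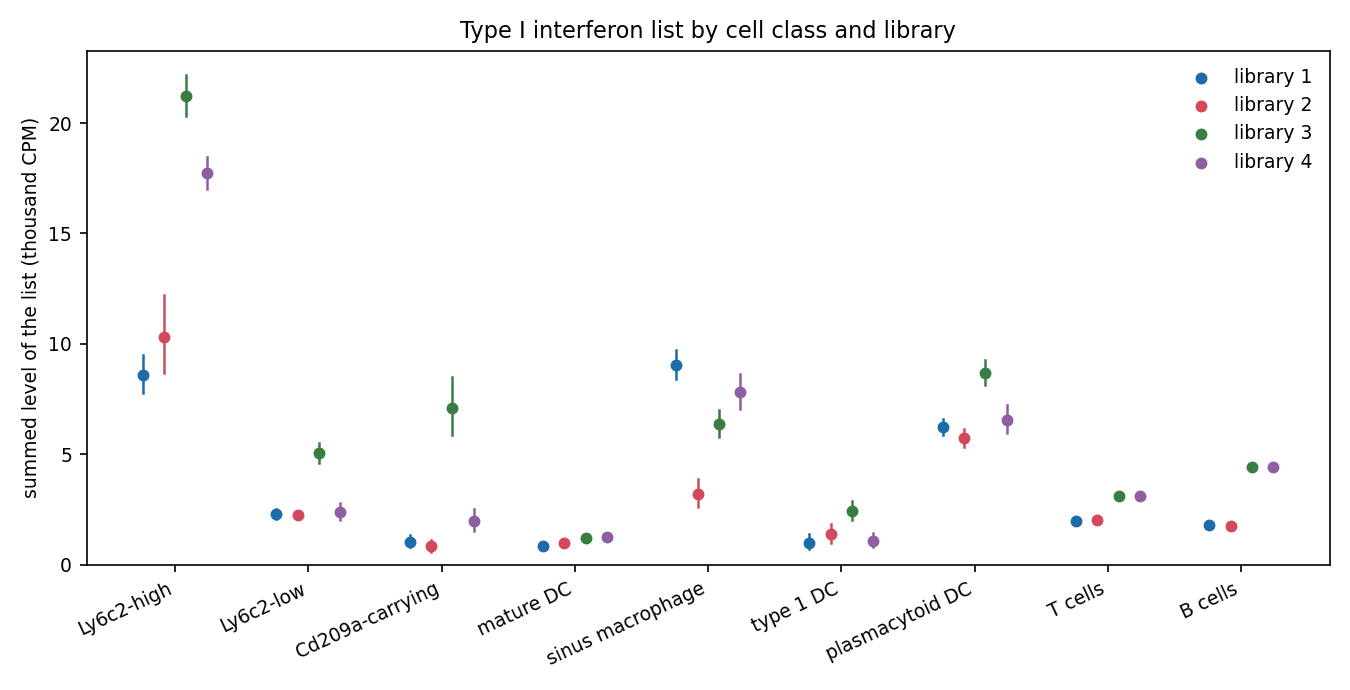
Summed level of the type I interferon list (axis in units of 1000 CPM) by cell class and library, with exact 95% Poisson intervals that cover counting error only. Ly6c2-high members stand highest in libraries 2, 3 and 4 (10317, 21237 and 17738 CPM), and in library 1 Ly6c2-high members (8595 CPM) and sinus macrophages (9056 CPM) are close.

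Set against other myeloid cells of the same libraries, the members differed from mature dendritic cells in the direction of monocyte genes. These classes and the members were set by their genes, so the values describe them and support nothing further. Mature dendritic cells (380 cells) were those with at least 2 of Fscn1, Ccl22 and Apol7c. Of 7327 genes 1123 were higher (15.3%) and 755 lower (10.3%) in the members, and 682 were higher and 1225 lower with TMM scaling, which gave a median log2 ratio of -0.17 in place of 0.31. With cells thinned to 2000 UMIs 325 were higher and 365 lower of 2498. Without the cells of other types 974 of 6548 were higher (14.9%) and 754 lower (11.5%). The type I interferon list had 20 of 25 genes higher and 0 lower (16 and 0 with TMM scaling). Ccr2, a rule gene, had 583 UMIs in members and 0 in mature dendritic cells, and Cx3cr1 had 191 and 2. Ly6c2 had 1070 UMIs in members and 6 in mature dendritic cells. Of 13 genes of the BTK pathway list 10 were higher and 1 lower, among them Btk at 49.4, 26.1, 60.5 and 27.4 CPM in members, against 10.2 to 28.1 CPM in mature dendritic cells (log2 ratio 1.37, 0.72 to 1.98).

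MHC class I genes stood lower in the members, with 6 of 17 lower and 0 higher, and 14 lower with TMM scaling. H2-Q7, a nonclassical class I gene, had 121, 99.2, 333 and 229 CPM in members, against 901, 935, 867 and 815 CPM in mature dendritic cells. Of 11 class II genes 7 were higher and 1 lower, and H2-Ab1 and Ciita were higher with log2 ratios of 3.08 and 3.54. Batf3, Zbtb46, the costimulatory gene Cd40 and the maturation gene Cd83 were lower, at -1.78, -1.63, -1.59 and -3.89. Without the cells of other types the lower genes of the inflammatory dendritic cell list went from 4 to 3. Those of the costimulation and checkpoint ligand list went from 5 to 4, and Cd40 is on both lists. Ccr7, the receptor that brings dendritic cells to nodes, had 8 UMIs in members and 3847 in mature dendritic cells, and Il4i1, an amino acid oxidase that breaks down tryptophan, had 78 and 2599.

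Sinus macrophages (125 cells with at least 3 UMIs of C1qa, C1qb and C1qc) had a median of 1088 UMIs. Of 3757 genes 238 were higher (6.33%) and 161 lower (4.29%) in the members, and 377 were higher and 101 lower with TMM scaling. Of 11 macrophage genes 8 were lower and 0 higher, led by the phosphatidylserine receptor Timd4 (13 UMIs in members, 230 in macrophages) and the scavenger receptor Marco (19 and 301). The chemokine gene Ccl8 had 14 UMIs in members and 607 in macrophages, a log2 ratio of -7.52. Ly6c2 was higher at 3.57, as was the rule gene Chil3 at 3.50. Without the cells of other types 221 of 2727 genes were higher (8.1%) and 131 lower (4.8%). The type I list had 0 of 28 genes higher and 0 lower, and 4 higher and 1 lower of 27 without the cells of other types.

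Type 1 dendritic cells (28 cells with at least 2 of Xcr1, Clec9a, Cadm1, Tlr3 and Wdfy4, and no member among them) are the class that Batf3 and Irf8 specify. They numbered 7, 5, 10 and 6 in libraries 1 to 4 and had a median of 3536.5 UMIs, against 8320 in members. Of 3450 genes 680 were higher (19.7%) and 71 lower (2.06%) in the members, and 145 were higher and 101 lower when cells were thinned to 2000 UMIs. Without the cells of other types 609 of 2142 were higher (28.4%) and 104 lower (4.86%). Irf8 stood at 620.3, 303, 459 and 224 CPM in members, against 1364, 1993, 2305 and 1512 CPM in type 1 dendritic cells, without overlap, and its log2 ratio was -2.24 (-2.46 to -2.02). Batf3 was lower at -2.20 and was not called without the cells of other types (-1.55). The chemokine gene Cxcl9 was lower at -3.58, although library 3 alone held 3242 CPM of it in type 1 dendritic cells. Of 25 type I interferon genes 17 were higher and 0 lower, with Oasl2 at 187 UMIs in members and 0 in type 1 dendritic cells. Of 9 class II genes 1 was lower and 0 higher.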

How the data were processed

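The deposited matrix held UMI counts per gene and cell barcode, and the authors made it with cellranger 5.0.0 per the file headers, on build mm10 per the submitters' processing notes. The counts were used as deposited. Barcodes were kept at 300 or more genes and up to 10% mitochondrial UMIs. Doublets were called per library with Scrublet at 0.8% per 1000 cells, and none was removed for that call. UMIs were summed per library over the cells of a set, and CPM are UMIs per 1000000 UMIs of that set. A log2 ratio used UMIs summed over the libraries used with a prior count of 1. Poisson and binomial intervals are exact, at 95%, and leave out all error but counting. The bound for a gene at 0 was set at 3 counts.

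Genes were called by a fold rule and not a significance test: at least 1.5-fold the same way in every library with at least 10 UMIs of the gene and at least 5 cells of each set, and at least 3 such libraries, or both where only 2 held enough cells. The count-model test of treated against control mice that had been planned was not made, since barcodes carry no mouse. Members were clustered with scanpy 1.11.5 and leidenalg 0.10.2 on 1500 variable genes, 15 components and 15 neighbours. The named genes were the 13 rule genes and a fixed set (Ly6c2, Ly6c1, Btk, Ido1, Batf3, Itgae, Zbtb46, Flt3, Irf4, Irf8, Trp53), up to 4 called genes per list with the largest ratios to a limit of 28 per comparison, the 20 list genes that differed most between libraries, and up to 10 leading genes per cluster. Other genes, such as Fcgr1, Tlr7, Gpr183, Tcf4, Ccr7 and Il4i1, were chosen after their values were seen. The members and gene lists were chosen with earlier results of these data known. The scripts, in Python 3.11.15 with numpy 2.4.6, scipy 1.17.1 and pandas 2.3.3, were tested on simulated data. Leaving out cells with other types' markers, and leaving out the deepest cell, were chosen after seeing the data.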

Additional observations from a re-analysis of the deposited data

How the results depend on the processing

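The number of members, 107, was 172 with at least 2 of the 13 rule genes. Their Ly6c2 level over all libraries, 1046 CPM, was 869 CPM with at least 2 rule genes and 1341 with at least 4, 1157 with at least 500 genes and at most 5% mitochondrial UMIs, 1391 when thinned to 2000 UMIs, 1543 without the cells of other types and 1218 without the deepest cell. Genes past 2-fold between libraries, 2213, numbered 4246 when thinned and 5647 with no filter on low levels, and 989 to 1780 with each library left out. Calls between Ly6c2-high and Ly6c2-low members, 401, numbered 1435 at 1 UMI or more, 252 at 20, 183 at 2-fold, 81 when thinned and 696 with high set at 10 UMIs and low at 0, and 401 to 737 with each library left out. Calls between Cd209a-carrying and lacking members, 801, numbered 3261 at 1 UMI, 360 at 20 and 396 at 2-fold, and were 801 without library 3 or 4; no value could be had without library 1 or 2, thinned, under the stricter cell filter or without the cells of other types, and none under that filter for Ly6c2. Calls against mature dendritic cells, 1878, numbered 3148 at 1 UMI, 1223 at 2-fold and 690 when thinned (1925 to 2066 with each library left out). Against sinus macrophages, 399, they numbered 1540, 200, 193 and 86 at 1 UMI, 20 UMIs, 2-fold and thinned (399 to 504), and against type 1 dendritic cells, 751, they numbered 2771, 378, 460 and 246 (662 to 914). Fewer genes could be called under the 20-UMI and thinned settings; the cause of the other changes was not tested.

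Against macrophages the log2 ratio of Gbp5, 0.05, was -0.014 with TMM scaling, 0 when thinned, and between -0.18 and 0.51 with each library left out (below 0 without library 2, 3 or 4), and that of Eno3, 0.37, was -0.21 when thinned. Against type 1 dendritic cells Adgre1, 2.54, was -0.39 when thinned and H2-Q4, 0.50, was between -0.0039 (without library 4) and 0.94 with each library left out. No other named gene changed direction under the alternatives run. No paired analysis was possible because the barcodes carry no mouse number. Small cell numbers limit the precision, with 2 Ly6c2-high cells in library 2 and 1 Cd209a-carrying cell in library 3.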
